A study of Mus musculus with 12 samples.

Results

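Genomic intervals whose matched input was unusually dense in reads were followed through a map of H3K27me3 in the mouse small-intestinal epithelium. Of 81097 deposited islands (intervals called as enriched for the mark), 79886 lay on autosomes, and 285 of these (0.357%) were kept. An island was kept when its control reads per bp exceeded 3 times the median over all islands of its own list. Control reads per bp therefore chose the islands, and in the lists that chose them that measure is given as a description. The authors' fold and false discovery rate (FDR) of an island contain the same control reads and are described without a test.

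The series profiled H3K27me3 by sequencing of immunoprecipitated chromatin (ChIP-seq) in 4 populations: epithelium of embryos at E12.5 and at E14.5 (days of gestation), adult Lgr5-positive intestinal stem cells (ISC) and adult enterocytes (AE). Each population had 2 ChIP libraries, described as biological duplicates, and 1 input library of sheared chromatin that was not immunoprecipitated. All mice were of a mixed C57BL/6 and CD1 background, and the adult cells came from Lgr5EGFP-Cre-ERT males at postnatal day 60. Cells of all 4 populations were sorted as EpCAM-positive and CD31-, CD45- and DAPI-negative, with stem cells taken by high Lgr5-EGFP, and 1 antibody, from Millipore, was used throughout. Only the islands of each library and the reads inside them were available. ChIP reads in islands ranged from 1171968 to 6627853 per library. The 2 replicates of a population had identical control reads in each of the 140 intervals that their lists shared exactly, so they were called against 1 control. The lists hold no expression values, so the identity of the sorted cells was not checked.

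H3K27me3 is placed by Polycomb repressive complex 2, spreads over broad domains of silenced developmental genes, and is redistributed as gut progenitors become stem cells and enterocytes. Input libraries show how readily each stretch of the genome is recovered and aligned without any antibody. Their reads are known to pile up where the assembly holds fewer copies of a sequence than the genome does, as in satellite arrays beside centromeres, ribosomal DNA and segmental duplications. Mouse centromeres lie at one end of each chromosome, at the start of the assembled sequence. Whether the islands described here overlap such sequence was not tested, since no mm9 sequence or annotation was used here, and regions are given by coordinate on mm9 without gene names.

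The selected islands were few and unevenly spread over the libraries: embryonic lists held more of them than enterocyte lists, and the lists of a population did not hold equal numbers. They numbered 53 and 65 in the E12.5 lists, 23 and 55 in E14.5, 23 and 44 in ISC, with 8 and 14 in AE (replicate 1, then replicate 2). As shares of the autosomal islands of a list these were 0.865 and 0.524% in E12.5, 0.293 and 0.575% in E14.5, 0.132 and 0.664% in ISC, with 0.0979 and 0.119% in AE. The lowest shares were those of the AE lists and ISC replicate 1, and the list with the most autosomal islands, ISC replicate 1 with 17361, had only 23 of them. The median control density that set the threshold was 20.9 and 20.8 reads per kb at E12.5, 21.3 and 21.5 in E14.5, 20.9 in both ISC lists, and 16.3 and 18.6 in AE.

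The density of the selected islands had a median of 5.14 times the list median over the 285, and 93 of them exceeded 8 times. Per list, the median ratio was 5.21 and 5.39 in E12.5, 5.75 and 4.43 in E14.5, 6.43 and 6.34 in ISC, with 3.47 and 6.24 in AE. The highest ratio was 32.1 and 35.2 in E12.5, 27.4 and 35.6 in E14.5, 38.5 and 49.7 in ISC, with 4.35 and 56.9 in AE. AE replicate 1 thus stood apart, with no island above 4.35 times its median. Counting error in the control reads left 241 of the 285 above the threshold at the lower bound of an exact Poisson 95% interval, and 44 not. The interval covers counting error only.

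**Figure D1:**
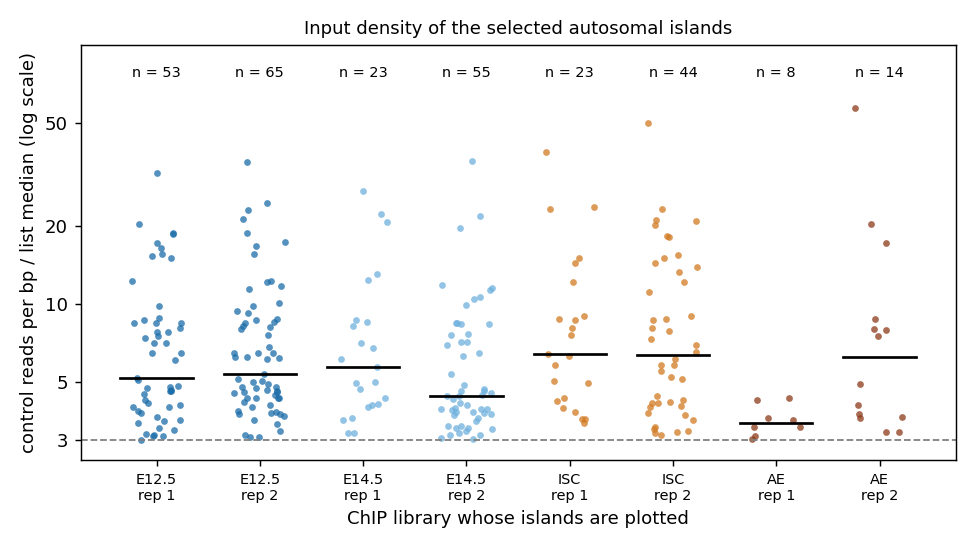
Control reads per bp of each selected island divided by the median of its list (log scale), by ChIP library; points are islands, black bars are list medians and the dashed line is the threshold of 3. AE replicate 1 ends at 4.35, and every other list has 1 island between 27.4 and 56.9 times its median, at the same locus on chromosome 17.

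Selected islands were shorter than the other autosomal islands in 8 of 8 lists, and many of the shortest islands of the series were among them. Their median length was 3 and 1.8 kb in E12.5, 3 and 2.2 kb in E14.5, 4.4 and 2.1 kb in ISC, with 2.1 and 4.7 kb in AE. The other autosomal islands had medians of 8.8 and 4.6 kb in E12.5, 7 and 8.4 kb in E14.5, 10.4 and 7.6 kb in ISC, with 7 and 5.4 kb in AE. Islands of a single 200 bp window, the smallest unit of the caller, made up 21 of the 285 (7.37%) and 3 of the other 79601. At the other end, 15 selected islands spanned 20 kb or more, up to 83.6 kb. Length enters the rule through the density, so no test is given.

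The 4 islands nearest to the threshold spanned 3.2 to 18.4 kb and had folds of 1.15 to 1.60. Just inside it, an island on chromosome 6 (29694601 to 29699000) in E12.5 replicate 1 had a ratio of 3.01, with 207 ChIP and 276 control reads and a fold of 1.29. Another, on chromosome 8 (19935201 to 19953600) in E14.5 replicate 2, also had 3.01 with a fold of 1.15. Just outside lay an island on chromosome 10 (57693801 to 57697000) in E12.5 replicate 2 at 2.98 with a fold of 1.60, and one on chromosome 6 (3130601 to 3134400) in E14.5 replicate 2 at 2.97 with a fold of 1.36. Of the 285, 79 lay below 4 times the median.

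Many of the selected intervals returned in more than 1 population. Pooled and merged when within 10 kb, the 285 islands formed 95 loci, which spanned 624.4 kb on all 19 autosomes. Of these loci, 57 held a selected island in 2 or more populations, 34 in 3 or more and 9 in all 4, and the 34 loci held 186 of the 285 islands (65.3%). The other 38 loci were selected in 1 population. Populations have separate inputs, whereas replicates of a population share one, so recurrence was counted over populations first. Other autosomal islands were not merged and counted in this way, so whether this recurrence exceeds theirs was not tested.

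Recurrence over lists was wide but never complete. A selected island was found in 7 lists at 3 loci, in 6 lists at 11 loci, in 8 lists at none, and in a single list at 33 loci. At 19 of these 33, another list had an island of lower control density over the locus, and at 14 no other list had any. E12.5 took part in 75 loci, E14.5 in 54, ISC in 46 and AE in 20. The most common combination was E12.5 with E14.5 and ISC, at 23 loci, followed by E12.5 alone at 21 and both embryonic stages at 14. Adult and embryonic lists shared 41 loci, 13 were found in adult lists alone and 41 in embryonic lists alone. These counts have no background from other islands, and they depend on how many selected islands each population had, 118 in E12.5 and 22 in AE.

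The most recurrent locus, on chromosome 17 (39977001 to 39987800, 10.8 kb), also held the densest island of every list but AE replicate 1. Its control reads numbered 6159 and 6149 in the E12.5 lists, 6169 and 6138 in E14.5, 6258 and 6235 in ISC, with 6975 in AE replicate 2. AE replicate 1 had no island there. The ChIP reads of the same islands were 5578 and 8638 in E12.5, 8451 and 8444 in E14.5, 5816 and 4874 in ISC, with 7507 in AE replicate 2. The control was nearly level over the islands of the 7 lists, which had different borders, and the ChIP reads were highest in E12.5 replicate 2 and lowest in ISC replicate 2. The fold was 1.56 and 2.24 in E12.5, 1.47 and 2.41 in E14.5, 1.19 and 1.08 in ISC, with 1.24 in AE replicate 2.

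At the second locus, on chromosome 2 (98502201 to 98508800, 6.6 kb), raw ChIP and control reads were similar in the 7 lists with an island. These reads are not scaled for library size, and the islands spanned 5.4 to 6.6 kb. ChIP reads were 2488 and 2464 in the E12.5 lists, 2585 and 2472 in E14.5, 2460 and 2586 in ISC, with 2455 in AE replicate 2. Control reads were 2593 and 2577 in E12.5, 2551 in both E14.5 lists, 2615 and 2619 in ISC, with 2501 in AE replicate 2. The fold nevertheless ran from 1.09 in E14.5 replicate 1 to 1.70 in E14.5 replicate 2. Both E14.5 islands had the same borders and the same control reads, and the E14.5 replicate 1 island, with the lower fold, had slightly more ChIP reads. The E14.5 replicate 1 library was 1.63 times the size of replicate 2, so similar raw reads do not mean equal signal.

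The third locus, on chromosome 12 (20231601 to 20241600), was less dense, at 3.10 to 4.92 times the list medians, and its ChIP reads did vary. They were 496 and 907 in E12.5, 1201 and 850 in E14.5, 699 and 519 in ISC, with 684 in AE replicate 2. Highest was E14.5 replicate 1 and lowest was E12.5 replicate 1, and the ISC and AE values all lay between those of the E12.5 replicates.

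Ranks 4 to 10 by recurrence spanned 1.8 to 15.4 kb. In order, they were chr11:108871601-108874800, chr9:35110001-35117600, chr2:27346001-27361400, chr17:36620201-36622000, chr13:120274401-120284200, chr11:88827601-88832400 and chr15:74912001-74917600. All but the last were selected in all 4 populations. The interval 88827601 to 88832400 on chromosome 11 was the only one of the 10 with a selected island in AE replicate 1, at a ratio of 4.35, and it had none in either replicate 1 list of the embryo. The chromosome 15 interval was selected in all E12.5, E14.5 and ISC lists, with 3.28 to 24.4 times the median over its islands, and had no island in AE.

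**Figure D2:**
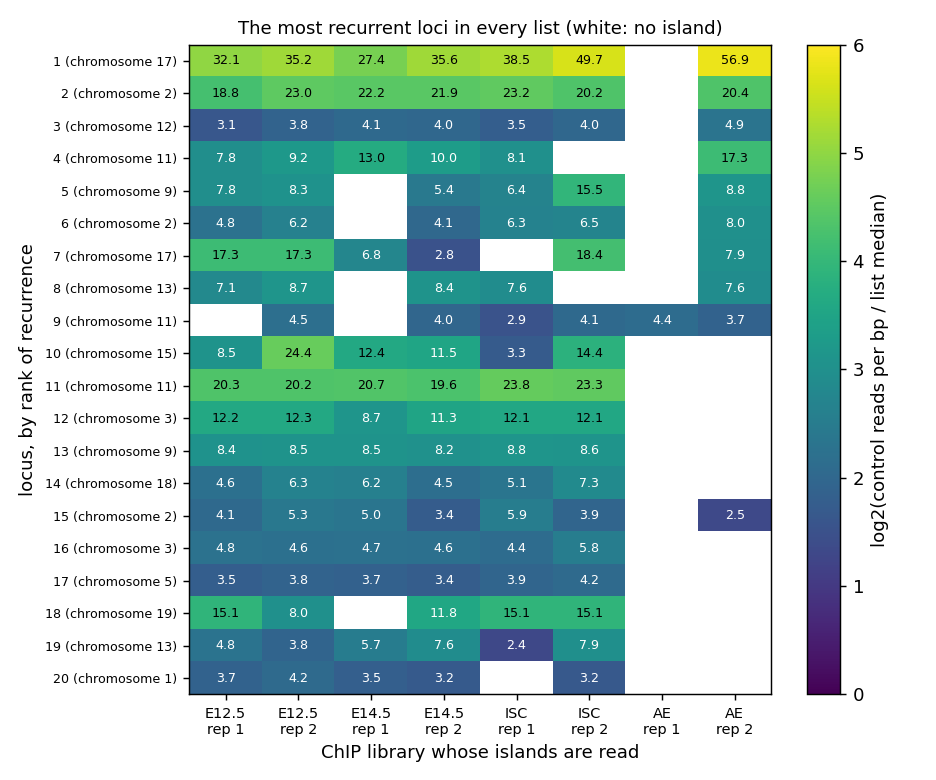
Control reads per bp over the list median at the 20 most recurrent loci, as numbers and colour (log2 colour scale), for each of the 8 ChIP libraries in columns; white cells are libraries with no island over the locus. The first 3 loci have a value in 7 of the 8 libraries, and AE replicate 1 lacks one at 9 of the first 10.

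A locus chosen in 1 population could be read in the other populations, whose inputs had no part in choosing it. Where such a population had an island over the locus, its control density was again far above the median in nearly all cases. Over the 585 pairs of a locus and another population, 363 (62.1%) had an island, and 291 of these (80.2%) exceeded 3 times the median. The same threshold was passed by 0.0979 to 0.865% of autosomal islands in the 8 lists. Only 1 of the 363 was not above its list median, a level that 49.8 to 51.5% of autosomal islands exceed. A locus chosen in more than 1 population entered the 585 pairs again with each choice. The pairs are therefore not independent, and they largely repeat the recurrence given above. Each autosomal island of a list was counted once, so the shares of pairs and of islands are set side by side as a description only.

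The median ratio in other populations was 4.39 for loci chosen in E12.5, 5.43 for those of E14.5, 4.70 for those of ISC and 4.55 for those of AE. Averaged over the 4 populations, the median log2 ratio was 2.25 ± 0.13 (SD, n = 4) and positive in 4 of 4. An exact two-sided sign-flip permutation test gave p = 0.125, the smallest value that 4 populations allow, so no call was possible at a threshold of 0.05. With the other test of this kind (chromosome starts) the family had 2 comparisons, and the Benjamini-Hochberg value was 0.125 for both. The populations share loci and only places with an island could be read, so the 4 signs are not independent and lend no support of their own. Lack of an island was common toward enterocytes: of the 75 loci chosen in E12.5, 57 had an island at E14.5, 47 in ISC and 16 in AE.

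Selected islands lay near the starts of chromosomes more often than other islands did in 7 of 8 lists. In the first 10 Mb lay 15 of 53 and 14 of 65 selected islands at E12.5, 8 of 23 and 14 of 55 at E14.5, 8 of 23 and 13 of 44 in ISC, and 1 of 8 and 0 of 14 in AE. Pooled, this was 73 of 285 (25.6%), against 2758 of the other 79601 autosomal islands (3.46%). Below 4 Mb lay 17.5% of the selected islands, on 8 chromosomes, and 0.553% of the others. The excess was found in every embryonic and ISC list, and in AE only in replicate 1, where it was 1 island.

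As means of the 2 replicates, the share in the first 10 Mb was 24.9% of selected against 3.67% of other islands at E12.5, 30.1 against 3.88% at E14.5, 32.2 against 3.16% in ISC, and 6.25 against 3.38% in AE. The difference averaged 19.8 ± 11.8 percentage points (SD, 4 populations) and was positive in 4 of 4, with p = 0.125 in the exact two-sided sign-flip permutation test, again the smallest possible. Without AE replicate 1 the mean difference was 18.3 points, and AE then had no selected island near a start. Position was not used by the rule, but islands of 1 locus in several lists count several times: by locus, 17 of 95 (17.9%) lay in the first 10 Mb, on 12 chromosomes.

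The chromosome starts were not alike. Chromosome 9 held 19 selected islands in its first 10 Mb, chromosome 3 held 12, chromosome 18 held 10 and chromosome 11 held 9. Chromosomes 1, 5, 8, 10, 15, 16 and 19 held none there. On chromosome 9 the first island of any list began at 2999801 and on chromosome 11 at 3000001, and both belonged to selected loci.

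**Figure D3:**
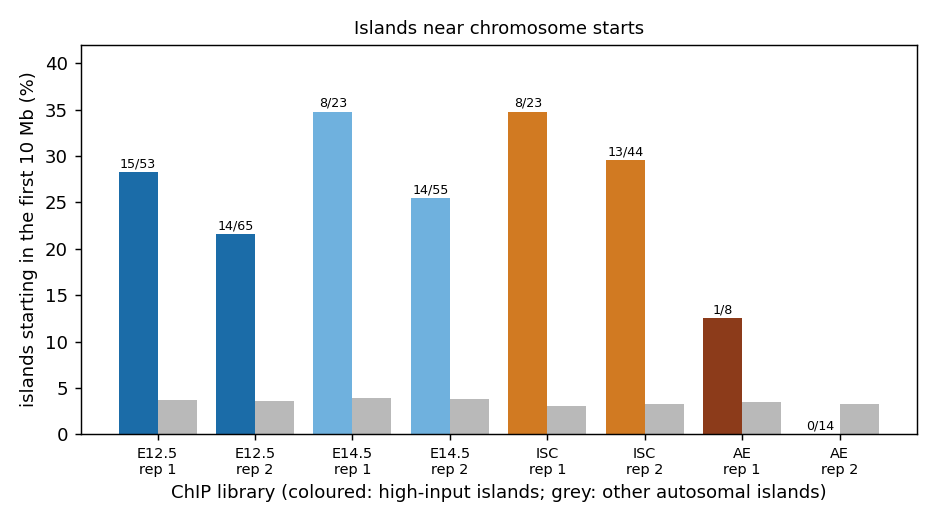
Share of islands that start in the first 10 Mb of their chromosome, for selected islands (coloured bars, with counts) and other autosomal islands (grey bars), in each ChIP library. The selected islands reach 21.5 to 34.8% in the E12.5, E14.5 and ISC lists, against 3.02 to 3.90% of other islands there, and fall to 1 of 8 and 0 of 14 in the AE lists.

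The largest locus near a start lay on chromosome 11 (3018801 to 3100400, 81.6 kb). It was covered nearly end to end in all 6 E12.5, E14.5 and ISC lists and had no island in AE. Control reads there were 33067 and 33052 in E12.5, 34385 and 34461 in E14.5, and 37069 and 37138 in ISC, or 19.6 to 23.8 times the list medians. ChIP reads were 25622 and 27987 in E12.5, 33445 and 24451 in E14.5, and 31061 and 28684 in ISC, fewer than the control in each list. The fold was 1.33 and 1.35 in E12.5, 1.04 and 1.24 in E14.5, and 1.07 in both ISC lists.

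The start of chromosome 9 held an interval with the same borders in 6 lists (3015201 to 3032800, 17.6 kb). Its control reads were 3094 in both E12.5 lists, 3200 in both E14.5 lists and 3220 in both ISC lists. Its ChIP reads were 2969 and 3005 in E12.5, 3168 and 2975 in E14.5, and 2974 and 3164 in ISC. The raw ChIP reads, not scaled for library size, therefore stayed within a factor of 1.07 over 3 populations. The fold was 1.65 and 1.55 in E12.5, 1.06 and 1.63 in E14.5, and 1.18 and 1.36 in ISC.

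Most loci stood alone, and a few formed clusters. Of the 95 loci, 76 had no other within 1 Mb, and the other 19 made 8 clusters. Chromosome 5 had the largest number in 1 cluster, 5 loci over 254.6 kb (14933201 to 15187800), each selected in a single list. The remaining 7 clusters had 2 loci each, at 98175601 to 98508800 on chromosome 2, 2999801 to 3259000 and 123371001 to 123782400 on chromosome 9, 3000001 to 3100400 on chromosome 11, 13498801 to 13746200 and 36367401 to 36622000 on chromosome 17, and 61274401 to 61340400 on chromosome 19. The chromosome 9 and 11 clusters at the starts held 19 and 9 islands in 6 lists.

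The fold of selected islands was lower than that of other islands at the median in 7 of 8 lists, and low folds were more frequent among them. The median fold of selected islands was 1.47 and 1.63 in E12.5, 1.24 and 1.60 in E14.5, 1.2 and 1.34 in ISC, with 1.39 and 1.25 in AE. The other autosomal islands had 1.38 and 1.65 in E12.5, 1.55 and 1.66 in E14.5, 1.46 and 1.44 in ISC, with 1.44 and 1.52 in AE. The exception was E12.5 replicate 1, where the selected islands had the higher median. A fold below 1.2 was found for 54 of the 285 (18.9%), against 1747 of the others (2.19%). The 2 groups had unlike limits, since an island with more reads can be called at a lower fold. Selected islands had median ChIP reads per bp of 3.81 (AE replicate 1) to 6.28 (E12.5 replicate 2) times the list median. In E14.5 replicate 1, an island with 33445 ChIP reads was called at a fold of 1.04. The part of read number in these shares was not tested.

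The fold is ChIP reads over control reads, divided by a constant of the list that carries the relative size of the 2 libraries. From that constant, an interval with as many ChIP as control reads has a fold of 1.72 and 1.59 in the E12.5 lists, 1.07 and 1.75 in E14.5, 1.28 and 1.39 in ISC, with 0.685 and 1.15 in AE. The islands over 8 times the median were then set against that point. Their median of ChIP over control reads was 0.920 and 0.966 at E12.5 (17 and 22 islands), 1.06 and 1.11 at E14.5 (8 and 13), 0.935 and 0.974 in ISC (10 and 18), and 1.02 in AE replicate 2 (5). Other autosomal islands had medians of 0.804 and 1.04 in E12.5, 1.45 and 0.947 in E14.5, 1.15 and 1.04 in ISC, with 1.32 in AE replicate 2, a wider spread over the lists. Single islands varied more than these medians: ChIP reads lay within 20% of control reads in 70.6 and 59.1% of the dense islands in E12.5, 62.5 and 38.5% in E14.5, 100% and 88.9% in ISC, and 100% in AE replicate 2. Of the other islands, 36.6 and 62.7% did so in E12.5, 13.7 and 41.6% in E14.5, 59.8 and 78.4% in ISC, and 25.4% in AE replicate 2. Near-equal reads were thus more frequent among the dense islands in 5 of these 7 lists, and not in replicate 2 of E12.5 or of E14.5. Where equal reads give a low fold, as in E14.5 replicate 1 and AE replicate 2, the 2 groups had unlike limits for a call. The part of this in the shares was not tested. The densest locus, on chromosome 17, lay off the point of equal reads, with a fold of 2.24 in E12.5 replicate 2 and 2.41 in E14.5 replicate 2.

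AE replicate 1 had no island over 8 times its median. Other islands in it had a median of 2.10 ChIP reads per control read. Equal reads would give a fold of 0.685 there, and the lowest fold of any island in that list was 1.08. An interval with equal reads therefore could not be among its islands. Whether the ChIP reads of AE replicate 1 were near the control at these loci was not tested, because reads outside islands were not analysed here.

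**Figure D4:**
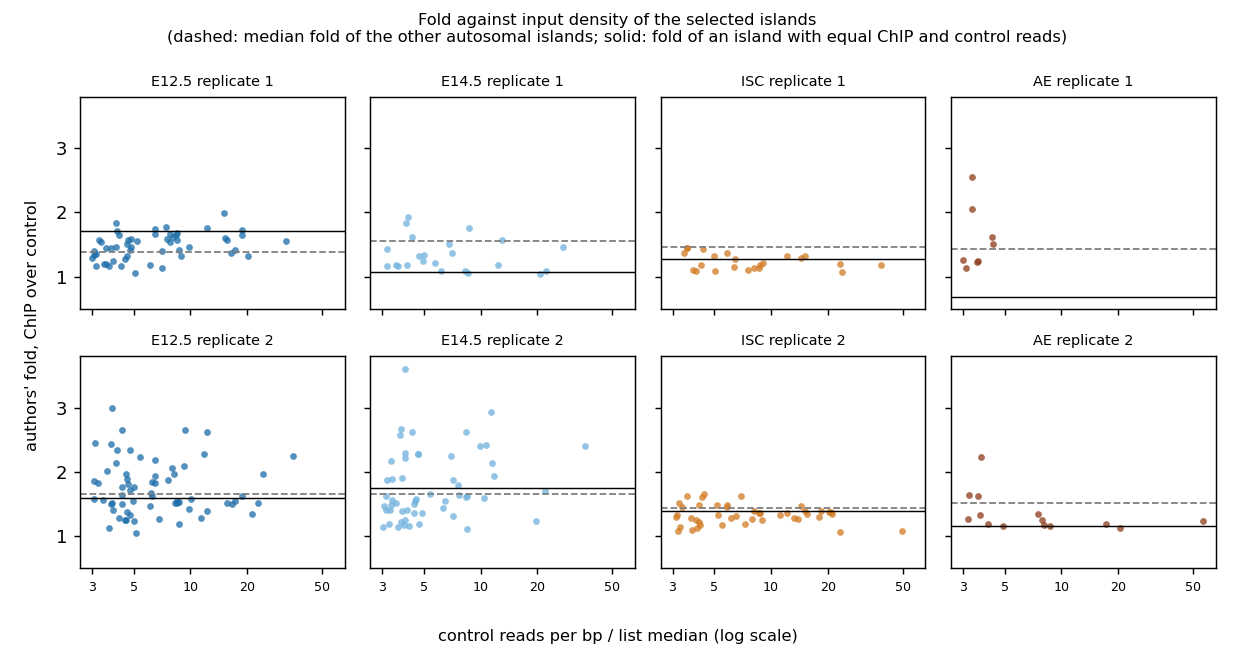
The authors' fold of each selected island against its control density over the list median (log scale), 1 panel per library; the dashed line is the median fold of the other autosomal islands and the solid line the fold at equal ChIP and control reads. The solid line lies at 1.07 in E14.5 replicate 1, 1.75 in E14.5 replicate 2 and 0.685 in AE replicate 1. Dense islands scatter around it most widely in E14.5 replicate 2, where the densest has a fold of 2.41.

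Replicates that share a control can be compared in raw reads. The E14.5 replicate 1 library was 1.63 times the size of replicate 2, and in 39 other autosomal intervals with the same borders in both lists it had a median of 1.28 times the ChIP reads. In the 5 selected intervals of this kind the median was 1 (0.83 to 1.06). In ISC, replicate 1 was 1.09 times the size, and the medians were 0.987 over 6 selected and 1.78 over 10 other intervals. At E12.5, replicate 1 was 0.928 times the size, and the medians were 0.959 over 9 selected and 0.553 over 10 other intervals. In AE, at a size ratio of 1.68, the only selected interval had 1.22 and the 27 others a median of 1.51.

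Across populations, 8 intervals had the same borders in lists of 3 or more populations and were selected in all of those lists, and 4 were selected in none. The highest ChIP count of an interval was a median of 1.27 times its lowest over the 8, and 2.09 times over the 4. The highest control count was a median of 1.08 times the lowest over the 8, and 1.2 times over the 4. Exact borders are a narrow choice of islands, so these ratios describe the 12 intervals and no more. Duplicate removal is not given in the sources used here, and its part in these counts was not tested.

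Selected islands were next read as a developmental comparison would read them. The 608.4 kb that they cover were split into 200 bp windows, and a window was called gained at a step when both libraries of the later population and neither of the earlier one had an island over it, and lost in the opposite case. The shares are given beside those of all autosomal windows called in any of the libraries compared (the background). An exact permutation test of 2 libraries against 2 cannot reach 0.05, and no test was run. A selected window entered through a dense island in any of the 8 lists, and 118 of the 285 islands came from E12.5 lists and 22 from AE lists. The background has no such condition, so part of any loss from E12.5 or toward AE follows from the choice of windows.

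With all lists as deposited, the lost share of the selected windows was above its background at each of the 3 steps and the gained share below it. Neither held under every setting. At E14.5 over E12.5, 17.0% of the selected windows were lost, against a background of 1.38%, and 6.86% were gained, against 9.45%. At ISC over E14.5, 10.0% were lost, against 3.91%, and 1.41% were gained, against 6.06%. At AE over ISC, 34.8% were lost, against 4.19%, and 0.382% were gained, against 0.919%.

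In length, the losses came to 100.4 kb at E14.5 over E12.5, 48.2 kb at ISC over E14.5 and 145.6 kb at AE over ISC. The selected windows were 0.322% of the length tested at the first step and 3.95% of the length lost. Much of that was 1 locus: without the longest locus, on chromosome 1, the loss at E14.5 over E12.5 was 3.38% of the selected windows. Without the 2 longest loci it was 4.03%, the gain at that step was 9.52% (background 9.45%) and the loss at AE over ISC was 20.7%. Counted by locus, with at least 50% of the tested windows called, 5 of 89 were lost (5.62%) and 2 gained (2.25%) at E14.5 over E12.5, 10 of 77 lost (13.0%) and 4 gained (5.19%) at ISC over E14.5, and 15 of 64 lost (23.4%) and 2 gained (3.12%) at AE over ISC. The backgrounds count windows and give no measure for shares of loci.

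The steps were also read with windows chosen by the 2 populations outside the step, whose lists have no part in the gain or loss. The loss at E14.5 over E12.5 was then 1.25%, below its background of 1.38%, and the gain 6.35% (9.45%). The loss was 7.29% at ISC over E14.5 (3.91%), with a gain of 0.709% (6.06%). At AE over ISC it was 41.5% (4.19%), or 140.4 kb, with a gain of 0.236% (0.919%). The loss from E12.5 thus rested on windows that E12.5 or E14.5 lists had themselves chosen. The loss from ISC to AE remained with windows that E12.5 or E14.5 lists had chosen. These overlap with the choice of the ISC lists, as 23 loci were selected in E12.5, E14.5 and ISC together, so the 2 choices cannot be told apart. Of the 140.4 kb, 74.8 kb were 1 stretch at the start of chromosome 11 and 17.6 kb another on chromosome 9.

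Stricter or looser lists turned several of these directions. Equal covered length cut each list to the length of the shortest and kept the highest folds, so it was also a filter on fold. The loss was then 2.80% at ISC over E14.5 (background 10.1%) and 0% at AE over ISC (4.02%). The ISC replicate 1 islands at the starts of chromosomes 11 and 9 had folds of 1.07 and 1.18, and such a cut removes low folds first. With a fold of 1.5 or more the AE over ISC step had no selected window lost (3.86%) and 4.65% gained (1.02%). In ISC replicate 1 the highest fold of a selected island was 1.45, so none of them passed that filter. A loss needs islands in both ISC lists, so these 2 settings do not test the loss at AE over ISC. With 5 times the median the loss at ISC over E14.5 was 1.77% (3.91%), and with 2 times the gain at AE over ISC was 3.33% (0.919%).

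When 1 replicate was left out, the other alone decided for its population, and several shares moved by over 1.5 times. Without E14.5 replicate 2, 32.5% of the selected windows were lost at E14.5 over E12.5 (background 2.99%) and 9.31% were gained at ISC over E14.5 (8.73%). At E14.5 over E12.5, 18.1% were gained (21.7%) and 21.6% lost (21.9%) without E12.5 replicate 2, and 21.3% lost (18.5%) without E12.5 replicate 1, so the excess of loss there shrank without either E12.5 library and ended without replicate 2. Without E14.5 replicate 1, 20.2% were lost at ISC over E14.5 (12.2%). Leaving out ISC replicate 2 gave 27.3% lost at ISC over E14.5 (4.32%), and 16.6% gained (1.09%) and 54.0% lost (54.0%) at AE over ISC, so that this loss no longer exceeded its background. Leaving out ISC replicate 1 gave 12.3% lost at ISC over E14.5 (20.3%) and 53.1% lost at AE over ISC (14.1%), and leaving out AE replicate 2 gave 7.07% gained (6.06%).

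**Figure D5:**
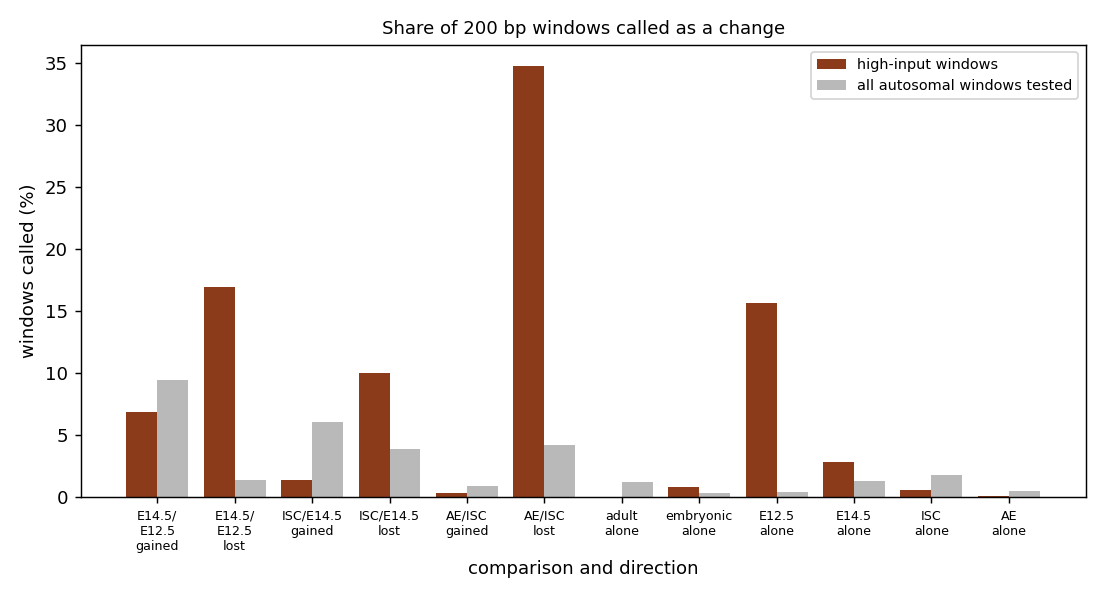
Percent of 200 bp windows called gained, lost or specific to a population, for windows in selected islands (dark bars) and for all autosomal windows called in the libraries compared (grey bars). The dark bar exceeds the grey one for the loss at each step, 34.8 against 4.19% at AE over ISC, and for E12.5 alone, 15.7 against 0.403%, of which 83.2 kb are 1 stretch.

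Few selected windows set adult and embryonic libraries apart as a whole. None of the 3042 windows was called in all 4 adult and no embryonic library, against a background of 1.21%. In all 4 embryonic and no adult library were 0.822%, against 0.382%, or 5 kb in all. Leaving out 1 library at a time gave 0.824 to 3.68%, and without E12.5 replicate 1 the share of 1.14% was below its background of 1.32%. It was 3.68% without E14.5 replicate 1, 2.52% without ISC replicate 2 and 1.85% without ISC replicate 1.

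Of the 4 populations, E12.5 had the largest share of selected windows to itself, and most of it was 1 locus. Called in both E12.5 libraries and in none of the other 6 were 15.7% of the selected windows, against 0.403% of all autosomal windows called anywhere. For E14.5 alone the share was 2.83%, against 1.34%, for ISC alone 0.559%, against 1.82%, and for AE alone 0.0986%, against 0.489%. Any of the 4 populations alone took 19.2%, against 4.05%, or 116.8 kb. Without the longest locus, E12.5 alone took 2.36% (12.4 kb) and E14.5 alone 3.28% (17.2 kb), so their order turned, and any population alone took 6.40%. Without ISC replicate 2 this last share was 20.0%, below a background of 32.8%, and at equal covered length 2.90%, below 5.84%.

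A few of these intervals reached the top of a ranking by length, where a reader of the changes would begin. The longest loss at E14.5 over E12.5, of 928 stretches, was the locus on chromosome 1 (90106001 to 90189200, 83.2 kb). ChIP reads over its islands were 5488 and 5811 at E12.5, below the 8891 and 8881 control reads, with folds of 1.06 and 1.04 and an FDR of 4.6e-05 and 0.0012. No other list had an island there, so it also ranked first among stretches of E12.5 alone. Rank 11 of that loss was a stretch of 8.4 kb near the start of chromosome 17 (3076201 to 3084600), with folds of 1.18 and 1.24.

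The longest loss at AE over ISC, of 3618 stretches, was 74.8 kb at the start of chromosome 11 (3025401 to 3100200), and the interval on chromosome 9 (3015201 to 3032800) ranked 8 with 17.6 kb. At both, the ChIP reads in ISC were at or below the control reads, as given above, with folds of 1.07 in both lists on chromosome 11 and 1.18 and 1.36 on chromosome 9. The E12.5 and E14.5 lists also held islands over both stretches.

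Gains had fewer entries of this kind. At E14.5 over E12.5, ranks 7 and 19 of 6291 stretches were neighbours on chromosome 8 (19935201 to 19953200, 18 kb, and 19916801 to 19932600, 15.8 kb), with folds of 1.16 and 1.15 at the first and 1.16 and 1.23 at the second. The first also lay in islands of ISC replicate 2 and of both AE lists, and the second in none, which made it rank 2 among stretches of E14.5 alone. In E14.5 replicate 1 both stretches lay in the same island of 36.8 kb. E12.5 replicate 2 had a selected island in this locus too, outside both stretches. At ISC over E14.5 none of the 20 longest gained or lost stretches was in selected windows. The longest of its losses there was rank 31 (chromosome 4, 146790401 to 146808600, 18.2 kb) and the longest of its gains rank 2913 (chromosome 5, 105357801 to 105359400, 1.6 kb). The longest gain at AE over ISC was rank 928 of 1233.

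Fewer of the selected windows than of windows in general were called in just 1 replicate of a population. Of the selected windows called at E12.5, 32.4% were in 1 of the 2 replicates, against a background of 79.8%. The shares were 37.3 against 54.8% at E14.5, 50.0 against 80.2% in ISC, and 58.8 against 65.4% in AE. Since a gain or loss needs both replicates of a population, these shares bear on how often a window could be called at all. Counted by locus, with at least 50% of the tested windows in 1 replicate, the shares were higher in each population. They were 43 of 87 (49.4%) at E12.5, 36 of 68 (52.9%) at E14.5, 34 of 56 (60.7%) in ISC and 19 of 26 (73.1%) in AE. The backgrounds count windows and give no measure for these shares of loci. Over the 8 lists, 31.0% of selected windows were called in 6, against 2.43% of all called windows, and 8.38% in 1, against 54.8%. Long loci weigh more in shares of windows, among them the 81.6 kb locus on chromosome 11, with islands in 6 lists.

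The lists differed in how many of the selected windows they held. The share called was 70.5 and 74.2% in E12.5, 48.1 and 72.3% in E14.5, 43.1 and 50.3% in ISC, with 16.4 and 23.0% in AE. Of all called windows, the same lists held 16.9 and 20.4% in E12.5, 20.0 and 28.8% in E14.5, 65.6 and 16.5% in ISC, with 21.7 and 24.7% in AE. The replicate means of the selected windows fell in the order E12.5, E14.5, ISC, AE, whereas in calling in general ISC replicate 1 held the most. The windows were chosen through dense islands of these same lists, 118 from E12.5, 78 from E14.5, 67 from ISC and 22 from AE. Part of the order follows from that choice, and no conclusion is drawn from it. The fold at equal reads was lowest in AE replicate 1 (0.685) and E14.5 replicate 1 (1.07), and its part in these shares was not tested.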

How the data were processed

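Each of the 8 H3K27me3 ChIP libraries came as 1 deposited list of islands, with no header. Tools and build, per the submitters' processing notes, were bcl2fastq 1.8.4, Bowtie 1.1.2, SAMtools 1.2, SICER 1.1 and mm9; the handling of duplicate reads is not given in the sources used here. ChIP and control reads per island are whole-number counts as the authors deposited them, not normalized. The p-value and FDR of an island are the authors' deposited values. The fold is the authors' deposited ratio of ChIP over control reads, scaled for the sizes of both libraries, and served only for descriptions and filters inside each list. The 4 input libraries entered only through the control counts.

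Control reads were divided by island length, and autosomal islands above 3 times the list median were kept. They were merged into loci within 10 kb and into clusters within 1 Mb, and lists were compared on the 200 bp window grid, with Python 3.11.15, numpy 2.4.6, pandas 2.3.3 and scipy 1.17.1. Population means entered exact two-sided sign-flip permutation tests. The selection, merging and window calls were checked on simulated lists with planted dense islands and no shared controls. The readings near chromosome starts and in other populations were not simulated. Replicates share a control and a population, so p-values were computed over 4 populations. Total reads per library are unknown, which bars count tests, and the number of islands sets the precision. Islands on X and Y were left out of the comparisons.

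Regions named are the 10 loci selected in the most populations, then lists, then by density; the 3 densest islands of lists; the longest selected stretch gained and lost at each step; and islands nearest to the threshold. Other regions were named after their values were seen. The islands, loci and comparisons were chosen with earlier results of these data known. Alternatives were other thresholds (2 and 5 times), a minimum length, stricter FDR and fold, equal covered length, other merging and start distances, single lists as values, and each library left out. Equal covered length kept the islands with the highest folds of each list. Leaving out the longest loci, and taking windows from populations outside a step, were chosen after seeing the data.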

Additional observations from a re-analysis of the deposited data

Results flagged for a closer look

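Among the 4 adult libraries, AE replicate 1 had a median control density of its selected islands of 3.475 times the list median, and the next value was 6.239. The other end of the adult range was 6.428. The library was picked out because its gap to the next value took most of the range of the group. This list had 8 selected islands, and its fold at equal ChIP and control reads, 0.685, was the lowest of the 8 libraries.

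Among the 4 embryonic libraries, E14.5 replicate 1 called 48.09% of the selected windows, against 70.55% in the next and 74.19% in the highest. It was picked out in the same way. Its fold at equal reads was 1.07, against 1.59 to 1.75 in the other 3 embryonic lists, and whether the 2 values are related was not tested. Chance picks out about 1 in 20 groups by this measure, if the 4 libraries of a group are independent draws from 1 population. Here each group mixed populations, and replicates shared a control. Several measures were examined in each group, and only those picked out are given.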

How the results depend on the processing

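Of 263 values recomputed under alternatives, 201 stayed within the range set for them (1.5 times a count, the binomial interval over loci of a share, or the same side of the test), 42 moved out of it, 18 shares crossed to the other side of their background and 2 passed a threshold they had missed. That binomial interval is wide, so a share could change severalfold within it. With 2 times the median there were 467 islands and 154 loci, 26 loci had an island of any density in all 4 populations (17 with 3 times), and at AE over ISC 22.9% of selected windows were lost and 3.33% gained, above the background of 0.919%. With 5 times there were 148 islands, 49 loci, 26 in 2 or more populations and 7 with an island in all 4. E14.5 over E12.5 then gained 0.566% and lost 30.5%, ISC over E14.5 lost 1.77%, below its background of 3.91%, AE over ISC lost 63.7%, 0.25% were in embryonic libraries alone (background 0.382%) and 29.8% in 1 population alone. A minimum of 1000 bp left 59 loci.

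An FDR of 1e-10 or less left 99 islands, 35 loci, 20 recurrent and 2 with an island in all 4 populations. E14.5 over E12.5 gained 0% and lost 4.45% (background 0.0864%), and 4.29% were in 1 population alone (3.26%). A fold of 1.5 or more left 132 islands, 31 recurrent loci and 1 in all 4 populations, with a gain of 0.457% and a loss of 6.06% (0.358%) at E14.5 over E12.5. It left 0% gained at ISC over E14.5, 0% lost (3.86%) and 4.65% gained (1.02%) at AE over ISC and 6.17% in 1 population alone (4.01%). At equal covered length, with the highest folds kept, there were 186 islands and 1 locus in all 4 populations. Gains at E14.5 over E12.5 were then 0%, losses 2.80% at ISC over E14.5 (10.1%) and 0% at AE over ISC (4.02%), and 2.90% were in 1 population alone (5.84%). These filters remove islands by construction, and each list median was computed again from the islands left. The cause of the changes in share was not tested. Under the filters on fold and on covered length, the loss at AE over ISC no longer exceeded its background. Both remove islands by their fold, which was low in ISC at the longest of these losses, so they do not test that loss.

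Without the longest locus, 3.38% were lost at E14.5 over E12.5 and 6.40% were in 1 population alone. Without the 2 longest, these were 4.03% and 7.58%, 9.52% were gained at E14.5 over E12.5 (9.45%) and 20.7% were lost at AE over ISC. With windows chosen by the 2 populations outside a step, an alternative chosen after seeing the data, 1.25% were lost at E14.5 over E12.5 (1.38%). With a replicate block, taking single lists as values, the excess near chromosome starts was 19.8 points (7 of 8 lists, exact sign-flip permutation p = 0.0156) and the log2 density in other populations 2.39 (8 of 8, p = 0.00781). Replicates share a control and loci, so these p-values count 1 input more than once, and the numbers pair no samples across populations.

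Leaving out 1 library at a time gave 220 to 277 islands, 85 to 94 loci, 46 to 57 recurrent and 6 to 17 with an island in all 4 populations. It gave an excess near starts of 18.3 to 21.4 points and a log2 density of 2.09 to 2.39. E14.5 over E12.5 gained 6.26 to 18.1% and lost 17.0 to 32.5%, ISC over E14.5 gained 1.35 to 9.31% and lost 9.29 to 27.3%, and AE over ISC gained 0.239 to 16.6% and lost 34.1 to 54.0%. Adult alone stayed at 0%, embryonic alone was 0.824 to 3.68%, and any population alone 19.5 to 23.5%. Counting the lists as deposited, the lost share exceeded its background in 17 of 19 settings at E14.5 over E12.5 and in 16 of 19 at each later step. These settings are not separate checks, since several leave the lists of a step unchanged and most share the same choice of windows.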

Other observations

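The sex chromosomes lay outside the selection, and their control density is given as values. On X, 76 of 1113 islands over the 8 lists exceeded 3 times the list median, and on Y 36 of 98 did. On X they numbered 10 and 16 in E12.5, 8 and 14 in E14.5, 1 and 14 in ISC, with 7 and 6 in AE. On Y they numbered 4 and 6 in E12.5, 5 and 4 in E14.5, 0 and 6 in ISC, with 7 and 4 in AE. The median X island had 1.23 and 0.762 times the list median at E12.5, 0.718 and 0.717 in E14.5, 0.527 and 3.17 in ISC, with 0.979 and 0.718 in AE. ISC replicate 2, the list with 3.17, had 26 X islands, and both ISC lists were called against 1 control.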
